A study of Mus musculus with 3 samples.

Results

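The Rab genes encode the largest family of small GTPases that steer membrane traffic, and PU.1 peaks were described at each of them in induced mouse pro-B cells. The members are the protein-coding RefSeq genes of build GRCm38 (mm10) whose symbol is Rab followed by a number and at most 1 letter and 1 further digit. The rule gave 59 of the 21900 protein-coding genes. For each gene, peaks were counted that overlapped its span or the 5 kb on either side. Because those peaks belong to the rule, the counts and scores below are a description and carry no test.

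Both PU.1 libraries come from i660BM cells, mouse pro-B cells of strain C57BL/6 in which doxycycline switches on PU.1, cultured with IL-7. Pro-B cells are B cell precursors, and PU.1, encoded by Spi1, is an ETS-family transcription factor of B and myeloid cells. Cells were induced with doxycycline at 70 ng/ml for 24 h, and chromatin was precipitated with a rabbit polyclonal antibody to PU.1 for ChIP-seq. The libraries are called replicates 2 and 3 after their titles. The third sample, 1 input library with neither antibody nor induction in its labels, has no peak list used here. Everything comes from 1 cell line, and both PU.1 libraries were induced, so binding that needs the induction and binding that does not cannot be told apart. Nothing in the labels says that the libraries came from separate cultures, and their read depth was not used here. No expression was measured, so the pro-B cell identity could not be checked against marker genes.

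Rab proteins switch between a GDP-bound and a GTP-bound form. Exchange factors load GTP, GTPase-activating proteins end the active state, and effectors bound to the active form bud, move, tether and fuse vesicles. A prenyl tail holds each Rab in its membrane, and chaperones carry it through the cytosol. In B cells this traffic serves antigen uptake, delivery to lysosomes and MHC class II compartments, and secretion. PU.1 binds DNA through an ETS domain that reads the core GGAA, often within GAGGAA or AGGAAGT.

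The lists differ greatly in length. Replicate 2 holds 74494 peaks and replicate 3 holds 6169, all of which overlap a replicate 2 peak. Each peak carries the score of the authors' peak caller, read as minus 10 times the log10 of its p-value. It starts at 70.0 in both lists and is compared only within a list. A score of 3100 is close to the top of the scale, and 2656 replicate 2 peaks reach it or more. A merged list of 49385 intervals gives positions alone.

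PU.1 peaks lay at most Rab genes. In replicate 2, 51 of the 59 genes had a peak (86.4%), against 70.7% of all protein-coding genes. In replicate 3, 16 had a peak (27.1%), against 15.1% of all protein-coding genes. In the gene span alone, without the flanks, 10 had one (16.9%, against 11.6%). A merged interval lay at 46 Rab genes (78%), against 62.6% of all genes. At least 3 replicate 2 peaks were found at 30 Rab genes (50.8%), against 29.9%. Most members thus had a peak in the longer list, and fewer than 1 in 3 had one in the shorter list.

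The 16 Rab genes with a replicate 3 peak were Rab1a, Rab5a, Rab5c, Rab6a, Rab7b, Rab8b, Rab12, Rab19, Rab24, Rab31, Rab35, Rab36, Rab37, Rab39, Rab40c and Rab43. They held 20 replicate 3 peaks, each over 1 replicate 2 peak, and the same 16 genes carried a region shared by both lists (27.1%, against 15.3% of all genes). The 20 replicate 2 peaks that overlap these had a median score of 3100 and a lowest of 1168, and the other 134 at Rab genes had a median of 306. Over the whole list, 97.1% of replicate 2 peaks scored 3100 or more overlap a replicate 3 peak. The replicate 3 scores ran from 75.4 to 379 with a median of 129, close to the 136 of the whole replicate 3 list. A peak scored 3100 or more in replicate 2 lay at 12 Rab genes (20.3%, against 7.66% of all genes), and all 12 also had a replicate 3 peak. Among all genes with such a peak that share was 95.8%. The other 4 genes with a replicate 3 peak were Rab5c, Rab6a, Rab12 and Rab19.

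**Figure D1:**
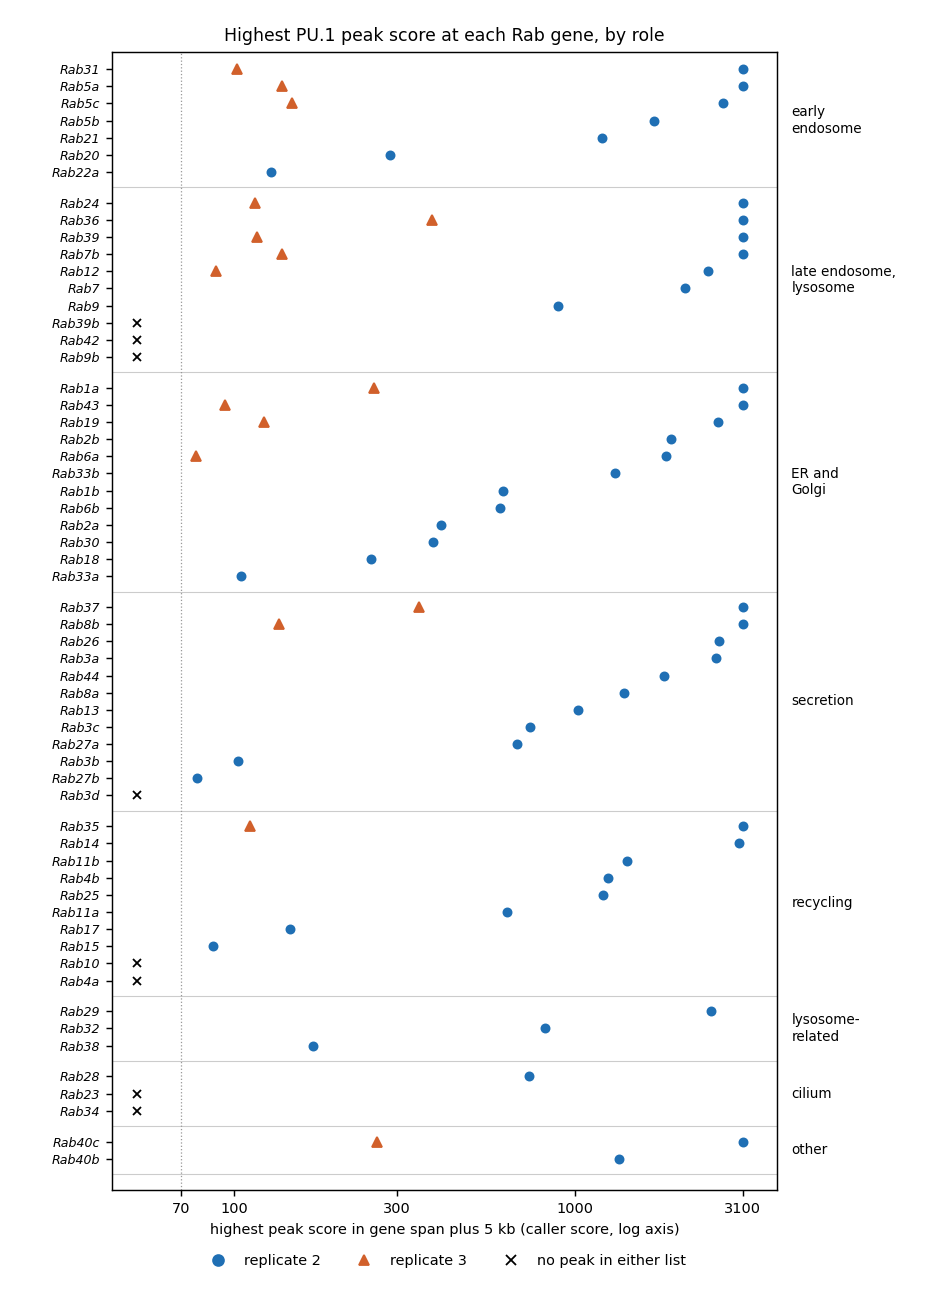
Highest peak score in the gene span plus 5 kb for each of the 59 Rab genes, grouped by role, on a log axis; circles are replicate 2, triangles replicate 3, and crosses genes with no peak in either list, and the dotted line marks the lowest score of 70.0. Scores may be compared only within a replicate: 12 genes reach 3100 in replicate 2, 16 have a triangle and 8 a cross.

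Among the 7 genes of early endosomes and phagosomes, all had a replicate 2 peak and 3 had a replicate 3 peak. The shares over all protein-coding genes were 70.7% and 15.1%. Rab5a, Rab5b and Rab5c encode close relatives that drive fusion of early endosomes, and their peaks were arranged differently. Rab5a had 2 peaks, both found in both replicates. One crossed the gene start (chromosome 17, 53478525 to 53479517 in replicate 3) with scores of 3100 in replicate 2 and 138 in replicate 3, and the other lay 3.55 kb upstream (53475159 to 53476211) with 3087 and 135. No further peak lay in the 28445 bp gene. Rab5c had 8 replicate 2 peaks spread from the start to beyond its far end. Those also found in replicate 3 lay inside the gene, 13.1 kb (chromosome 11, 100724724 to 100725555) and 2.01 kb (100735770 to 100736645) from the start, with scores of 2711 and 1743 in replicate 2 and 148 and 75.4 in replicate 3. The peak across the Rab5c start scored 1483 in replicate 2 and had none in replicate 3. The Rab5c peaks beyond the far end, of 304 and 145, lay over Hspb9 and Kat2a, with midpoints 37 and 35 bp from their listed starts. Rab5b had 5 replicate 2 peaks, the highest across its start with a score of 1703 and also over the melanosome gene Pmel, and none in replicate 3. Peaks in both lists were thus at and before the start in Rab5a, inside the gene in Rab5c and absent at Rab5b.

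**Figure D2:**
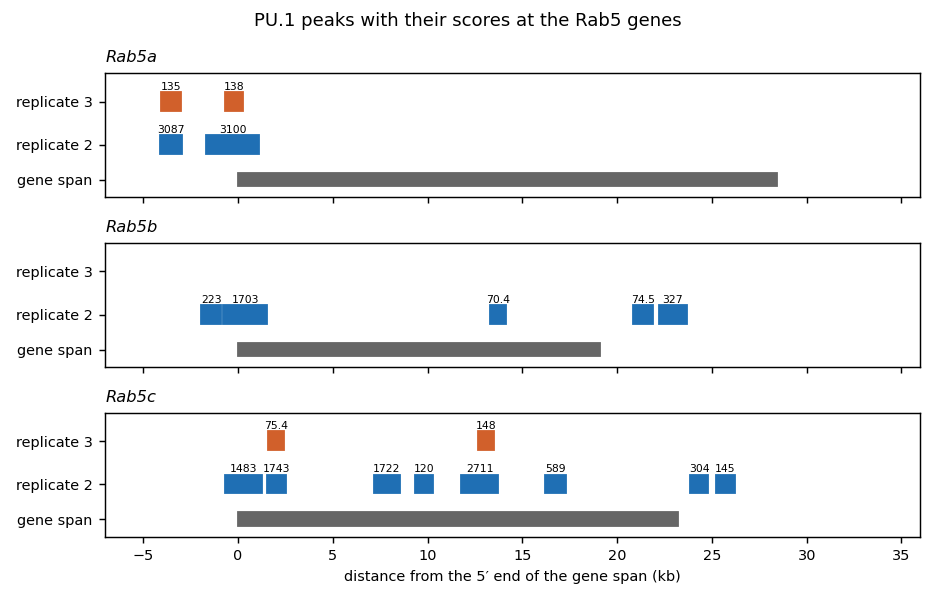
Peaks of both replicates at Rab5a, Rab5b and Rab5c, drawn to scale against the distance in kb from the 5′ end of each gene span (grey bar), with each peak's caller score above it. Replicate 3 peaks lie at and before the start of Rab5a, at 2 places inside Rab5c and nowhere at Rab5b.

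Rab31, which acts between the trans-Golgi network and endosomes, had 7 replicate 2 peaks. The 1 scored 3100 lay inside the gene 1.47 kb from its start, and a replicate 3 peak there scored 102 (chromosome 17, 65770714 to 65771696). The other 6 scored 79.1 to 591 and had no replicate 3 peak. Best replicate 2 scores in this role group ran from 129 to 3100.

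Of 10 late endosome, lysosome and autophagy genes, 7 had a replicate 2 peak and 5 a replicate 3 peak, beside 70.7% and 15.1% of all protein-coding genes. Rab7b, which acts in transport between late endosomes and the trans-Golgi network, had 4 replicate 2 peaks. Its highest lay inside the gene (chromosome 1, 131700166 to 131701087 in replicate 3) with 3100 in replicate 2 and 138 in replicate 3. Rab7, the Rab of late endosome and lysosome fusion, had 5 replicate 2 peaks, the highest of 2098 across its start, and none in replicate 3. The pair thus differed in the shorter list, while both had several peaks in the longer one.

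Rab36, linked to the positioning of lysosomes, had 2 replicate 3 peaks and the highest replicate 3 score of the family. That peak scored 379 (chromosome 10, 75055370 to 75056452), above 89.2% of its list, and 3100 in replicate 2. It lay 1.16 kb from the nearer end of the Rab36 span, on the side of Bcr, whose nearest listed start was 4985 bp away. The other lay inside Rab36 with 2584 in replicate 2 and 191 in replicate 3. Rab39, an endosome and phagosome Rab, had a peak 2.75 kb upstream of its start (chromosome 9, 53708505 to 53709466) with 3100 and 117. Rab24, tied to autophagy, had one beyond its far end that also overlapped Nsd1, a histone methyltransferase gene (chromosome 13, 55318216 to 55319184), with 3100 and 115. Rab12, which acts in degradation of membrane receptors, had one 1.83 kb beyond its far end (chromosome 17, 66492194 to 66493163) with 2458 and 88.8. Rab39b, Rab9b and Rab42 had no peak.

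Genes of transport between the endoplasmic reticulum and the Golgi and within the Golgi all had a replicate 2 peak, 12 of 12. A replicate 3 peak lay at 4 of them, beside shares of 70.7% and 15.1% over all protein-coding genes. Rab1a, which acts in the step from endoplasmic reticulum to Golgi, had a peak across its start scored 2311 in replicate 2 with none in replicate 3. Its peak in both lists lay 4.5 kb beyond the far end, overlapping the centrosomal gene Cep68 (chromosome 11, 20230839 to 20231864), with 3100 and 258. Rab43, a Golgi Rab, had 7 replicate 2 peaks, of which the 1 inside the gene, 3.52 kb from the nearest listed start, was also in replicate 3 (chromosome 6, 87805775 to 87806708; 3100 and 94.2). Rab6a, a Rab of retrograde Golgi transport, had the lowest replicate 3 score of these 4 genes. Its peak lay 2752 bp upstream of the listed start and overlapped Mrpl48, a mitochondrial ribosomal protein gene (chromosome 7, 100604346 to 100605322), with 1842 in replicate 2 and 77.5 in replicate 3. Rab19 had one at -1.93 kb, upstream of its listed start (chromosome 6, 39378933 to 39379922) with 2621 and 122. The nearest listed start to that peak was that of Slc37a3, 1720 bp away. In none of these 4 genes did the replicate 3 peak come within 1 kb of a listed start. The best replicate 2 scores of this group ran from 105 to 3100.

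Of 12 genes of secretion and exocytosis, 11 had a replicate 2 peak and 2 a replicate 3 peak, beside 70.7% and 15.1% of all protein-coding genes. Rab8b acts in transport from the trans-Golgi network to the plasma membrane. It had a peak within 1 kb of its start with 3100 in replicate 2 and 136 in replicate 3. The replicate 3 peak (chromosome 9, 66918341 to 66919647) ended inside the gene, short of the start at 66919705. Rab8a, the paralog of Rab8b, had a replicate 2 peak of 1001 across the start and none in replicate 3. A higher replicate 2 peak of 1394 lay inside Rab8a. Rab37, a Rab of secretory granules, had 7 replicate 2 peaks, and 1 of them scored 3100 with 349 in replicate 3 (chromosome 11, 115133468 to 115134505). That peak lay inside Rab37 but its midpoint was 6 bp from the listed start of Cd300lf, an inhibitory receptor gene of myeloid cells nested in the same span. The peak can therefore not be assigned to Rab37 from position.

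Rab27a, needed for release of lytic granules and for melanosome transport, had 6 replicate 2 peaks with scores of 77.9 to 677. Rab27b, its paralog, had 1 peak of 77.8 inside its 162503 bp span, near the lowest score of the list. Rab44, a large Rab with roles in mast cell granules, had 3 replicate 2 peaks, of 1569, 88.6 and 1822. None of these 3 genes had a replicate 3 peak. Rab3d, a granule Rab of exocrine and other secretory cells, had no peak in either list.

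Of 10 recycling genes, 8 had a replicate 2 peak and 1 a replicate 3 peak, beside 70.7% and 15.1% of all protein-coding genes. That gene was Rab35, which acts in fast recycling from the plasma membrane, and its peak lay inside the gene 3.42 kb from the start (chromosome 5, 115634605 to 115636205; 3100 and 112). Rab11a and Rab11b, the Rabs of the recycling endosome, each had a replicate 2 peak across the start, with 632 and 1416. Rab4b, of rapid recycling, had a peak of 1245 across its start, and its paralog Rab4a had no peak in either list. Rab10, which acts in delivery of cargo such as glucose transporters to the surface, had none either. Rab14 had a replicate 2 peak of 3013 inside the gene and none in replicate 3.

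Lysosome-related organelle genes each had 1 replicate 2 peak and none in replicate 3. Rab32 and Rab38 act in the making of melanosomes. Rab32 had a peak of 814 centred 7 bp from its start, and Rab38 one of 171 at 1.12 kb outside its span. Rab29 had one of 2506 across its start. Of the ciliary genes, Rab23, a brake on Hedgehog signalling, and Rab34 had no peak, and Rab28 had 5 in replicate 2, up to 735. Rab40c, whose protein joins a ubiquitin ligase through a SOCS box, had 2 replicate 3 peaks inside the gene. They lay at chromosome 17, 25895284 to 25896196 (3100 and 263) and 25896793 to 25897766 (1168 and 88.1). Its paralog Rab40b had 1 replicate 2 peak of 1347 beyond its far end.

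In all, 8 Rab genes had no peak in either list, namely Rab3d, Rab4a, Rab9b, Rab10, Rab23, Rab34, Rab39b and Rab42. This says that nothing there passed the authors' caller at these depths. A further 5 had replicate 2 peaks but no merged interval, and their best scores were low, from 77.8 for Rab27b to 146 for Rab17. On chromosome X lay 4 Rab genes, of which Rab9 and Rab33a had a replicate 2 peak, with best scores of 888 and 105.

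Gene starts were taken from a RefSeq promoter table that lists 48 of the 59 Rab genes and 17492 protein-coding genes. Rab2a, Rab4a, Rab7b, Rab18, Rab26, Rab27b, Rab30, Rab36, Rab37, Rab38 and Rab44 are not listed there. Within 1 kb of a start, 29 of the 48 Rab genes had a replicate 2 peak (60.4%, against 41.6% of all listed genes). Only Rab5a and Rab8b had a replicate 3 peak there (2 of 48, 4.17%, against 3.96%), and a shared region came within 1 kb of the start at these genes and Rab31 (6.25%, against 4.22%). These 3 genes are also the ones with a replicate 2 peak of 3000 or more within 1 kb of a start. Within 5 kb the count in replicate 3 was 10 of 48 (20.8%, against 7.05%), and in replicate 2 it was 34 of 48 (70.8%, against 55%). Merged intervals lay within 1 kb of a start at 28 of 48 Rab genes (58.3%, against 35.3%) and within 5 kb at 32 (66.7%, against 46.8%). Between those limits, 8 Rab genes had a replicate 3 peak within 5 kb but not within 1 kb (16.7%, against 3.09%). The genes in that zone were Rab5c, Rab6a, Rab19, Rab24, Rab31, Rab35, Rab39 and Rab43. The split depends on the 1 kb limit. The Rab31 peak came close to it, with a midpoint 1.55 kb from the start. The Rab19 peak was nearer to the listed start of Slc37a3 than to that of Rab19.

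**Figure D3:**
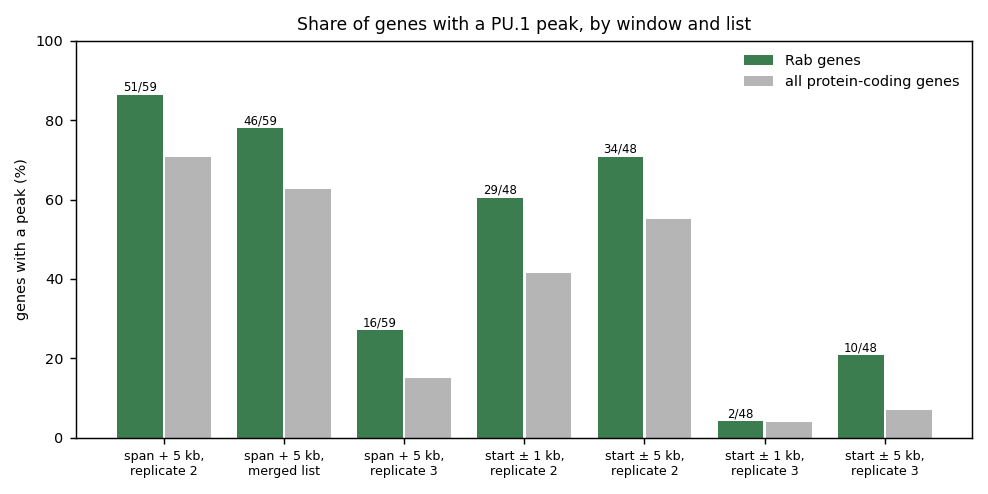
Percent of genes with a PU.1 peak for Rab genes (green, with counts) beside all protein-coding genes (grey), for the gene span plus 5 kb and for windows around listed gene starts. For replicate 3 peaks the bars stand at 4.17% and 3.96% within 1 kb of a start, and at 20.8% and 7.05% within 5 kb.

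**Figure D4:**
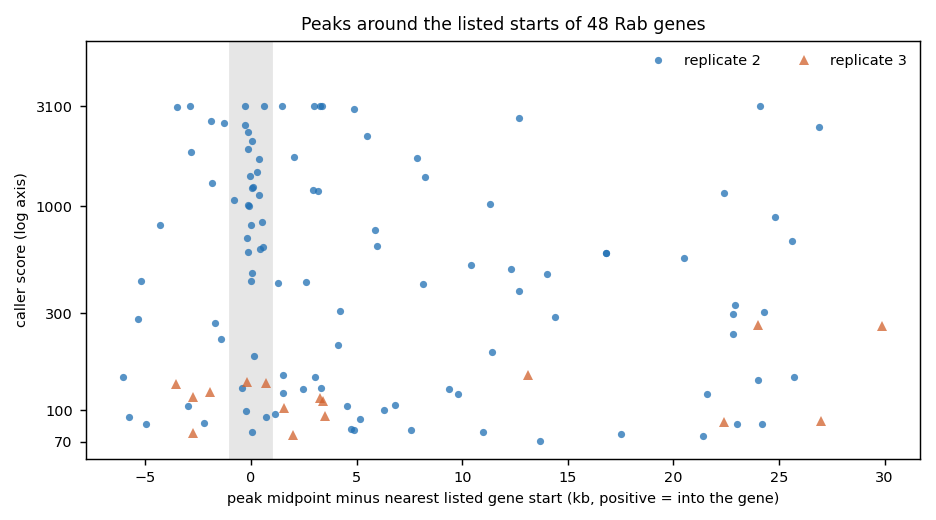
Caller score (log axis) against the distance of each peak's midpoint from the nearest listed start, in kb and positive into the gene, for the 48 Rab genes with a listed start; circles are replicate 2, triangles replicate 3, and the grey band spans 1 kb on each side. All 16 replicate 3 peaks and 106 of 123 replicate 2 peaks lie within the 30 kb drawn, and 2 triangles fall in the grey band.

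Promoter sequences are shown for the Rab genes with a replicate 3 peak within 1 kb of the start, for those with AGGAAGT under a peak, and for members with neither peak nor GGAA. They are from RefSeq on GRCm38, 250 bases before to 50 after the start, given 5′ to 3′ on the gene's strand. Rab5a (chr17:53478984-53479283, plus strand) and Rab8b (chr9:66919656-66919955, minus strand) have a peak of 3100 there in replicate 2. The Rab5a window overlaps its replicate 3 peak, and that of Rab8b lies just beyond its own. Capitals mark GGAA on either strand, found 6 times in Rab5a and 2 times in Rab8b, and neither window holds GAGGAA or AGGAAGT.
Rab5a: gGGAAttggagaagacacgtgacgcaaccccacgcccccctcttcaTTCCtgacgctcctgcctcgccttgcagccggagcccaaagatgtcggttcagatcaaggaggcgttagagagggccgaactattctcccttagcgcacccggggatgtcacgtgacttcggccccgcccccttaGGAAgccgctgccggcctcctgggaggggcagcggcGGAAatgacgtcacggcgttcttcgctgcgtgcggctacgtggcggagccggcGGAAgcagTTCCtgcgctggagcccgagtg
Rab8b: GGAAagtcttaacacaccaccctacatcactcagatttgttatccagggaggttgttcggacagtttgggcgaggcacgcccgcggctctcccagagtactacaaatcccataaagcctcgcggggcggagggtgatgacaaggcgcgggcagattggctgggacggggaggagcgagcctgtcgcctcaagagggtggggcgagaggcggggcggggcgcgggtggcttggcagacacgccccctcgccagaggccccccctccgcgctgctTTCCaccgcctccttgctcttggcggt

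The next 4 windows hold AGGAAGT on either strand beneath a replicate 2 peak. In these, capitals mark GAGGAA and AGGAAGT on either strand, which overlap where the letters run on. Rab32 (chr10:10558158-10558457, minus strand) holds both motifs in 1 run that begins 43 bases before the start, almost at the centre of its peak of 814. Rab6a (chr7:100607336-100607635, plus strand) holds GAGGAA 2 times and AGGAAGT 1 time, all on the other strand, under a peak of 598. Rab2b (chr14:52279346-52279645, minus strand) holds an overlapping pair under a peak of 1905 that also overlaps Tox4. Rab13 (chr3:90213465-90213764, plus strand), which acts in transport to epithelial junctions, holds AGGAAGT 25 bases before its outermost start. That site lies under a peak of 1021 that also overlaps Rps27. Another listed Rab13 window (chr3:90220534-90220833), not shown, holds AGGAAGT, and GAGGAA 2 times, and overlaps no peak.
Rab32: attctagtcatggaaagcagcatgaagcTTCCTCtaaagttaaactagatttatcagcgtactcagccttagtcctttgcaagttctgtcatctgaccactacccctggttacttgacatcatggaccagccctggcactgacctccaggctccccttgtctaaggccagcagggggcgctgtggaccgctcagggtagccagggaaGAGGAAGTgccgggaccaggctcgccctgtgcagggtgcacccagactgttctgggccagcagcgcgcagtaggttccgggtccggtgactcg
Rab6a: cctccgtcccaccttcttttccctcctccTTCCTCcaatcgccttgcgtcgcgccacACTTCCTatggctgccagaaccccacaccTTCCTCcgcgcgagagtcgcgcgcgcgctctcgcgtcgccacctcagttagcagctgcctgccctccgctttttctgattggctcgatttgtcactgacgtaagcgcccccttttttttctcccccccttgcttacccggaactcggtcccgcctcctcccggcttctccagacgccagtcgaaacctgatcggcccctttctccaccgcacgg
Rab2b: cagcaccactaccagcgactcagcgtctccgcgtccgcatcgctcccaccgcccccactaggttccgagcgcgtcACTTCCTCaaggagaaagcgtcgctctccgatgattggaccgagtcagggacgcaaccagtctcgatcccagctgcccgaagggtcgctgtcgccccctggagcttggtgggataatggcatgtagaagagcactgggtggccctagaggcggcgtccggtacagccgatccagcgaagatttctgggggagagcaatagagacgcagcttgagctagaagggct
Rab13: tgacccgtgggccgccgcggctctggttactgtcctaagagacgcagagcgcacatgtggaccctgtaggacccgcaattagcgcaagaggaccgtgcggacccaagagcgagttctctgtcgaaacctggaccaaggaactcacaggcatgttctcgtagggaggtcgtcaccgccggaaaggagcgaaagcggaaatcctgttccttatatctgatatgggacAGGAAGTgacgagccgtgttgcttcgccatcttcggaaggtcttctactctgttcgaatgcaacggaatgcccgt

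Rab3d (chr9:21918134-21918433, minus strand) and Rab39b (chrX:75578182-75578481, minus strand) have no peak in either list, and their windows hold no GGAA on either strand. Most Rab windows without a replicate 2 peak, 26 of 28, do hold GGAA. The windows of Rab3d and Rab39b have no capitals.
Rab3d: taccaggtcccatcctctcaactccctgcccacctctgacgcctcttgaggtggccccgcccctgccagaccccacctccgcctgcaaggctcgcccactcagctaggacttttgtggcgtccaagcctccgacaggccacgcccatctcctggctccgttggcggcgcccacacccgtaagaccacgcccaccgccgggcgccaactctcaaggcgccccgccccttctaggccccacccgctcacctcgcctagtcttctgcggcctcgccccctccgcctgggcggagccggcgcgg
Rab39b: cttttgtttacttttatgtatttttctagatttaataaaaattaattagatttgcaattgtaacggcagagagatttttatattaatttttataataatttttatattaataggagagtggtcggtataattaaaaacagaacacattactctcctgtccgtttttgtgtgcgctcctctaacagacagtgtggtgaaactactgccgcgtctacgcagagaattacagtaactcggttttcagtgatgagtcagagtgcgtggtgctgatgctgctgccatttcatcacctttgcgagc

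Over all 60 listed windows of the 48 Rab genes, 11 held GAGGAA on either strand (18.3%, against 27.4% of the 21263 windows of all listed genes). AGGAAGT was in 6 (10%, against 9.07%) and GGAA, which both of the longer motifs contain, in 57 (95%, against 95.7%). In the 32 Rab windows that overlap a replicate 2 peak, GAGGAA was in 7 (21.9%), AGGAAGT in 4 (12.5%) and GGAA in 31 (96.9%). In the 28 Rab windows without such a peak these were 4 (14.3%), 2 (7.14%) and 26 (92.9%). Over all genes, GAGGAA was in 30.4% of windows with a replicate 2 peak and 25.7% of those without. For AGGAAGT the shares were 12.6% and 7.17%, and for GGAA 97.3% and 94.9%. The third Rab window without GGAA belongs to Rab43 and overlaps a weak replicate 2 peak of 99.2. The median GC content was 63% in Rab windows that overlap a replicate 2 peak and 58.5% in those without, beside 61% and 53% over all genes. The part of base composition in these motif counts was not tested.

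Rab genes are somewhat longer than most, with a median span of 23.2 kb, against 17.1 kb for all protein-coding genes, and a longer window can hold more peaks. Per length, Rab windows held 57 replicate 2 peaks per Mb, against 35.6 for all protein-coding genes, and 7.4 replicate 3 peaks per Mb, against 3.11. These densities cover unlike ranges of length, with spans of up to 227 kb for Rab genes and 2390 kb for all genes. Genes were therefore also compared by class of span length. In the shortest 25%, 3 of 5 Rab genes had a replicate 2 peak (60%, against 41.8% of all genes) and 1 a replicate 3 peak (20%, against 4.8%). In the second 25%, 11 of 14 had a replicate 2 peak (78.6%, against 69.5%) and 2 a replicate 3 peak (14.3%, against 11.8%). In the third class of 17.1 to 44.3 kb, 24 of 26 Rab genes had a replicate 2 peak (92.3%, against 79.5%). In the longest 25% the replicate 2 shares were 92.9% of 14 Rab genes and 91.8% of all genes. In replicate 3, the third class held 10 of the 16 Rab genes with a peak (38.5% of 26, against 15.7%), and in the longest 25% the Rab share of 21.4% was below the 28.1% of all genes. The Rab shares were thus higher than those of all genes in the 3 shorter classes, by differing amounts, and close to or below them in the longest.

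**Figure D5:**
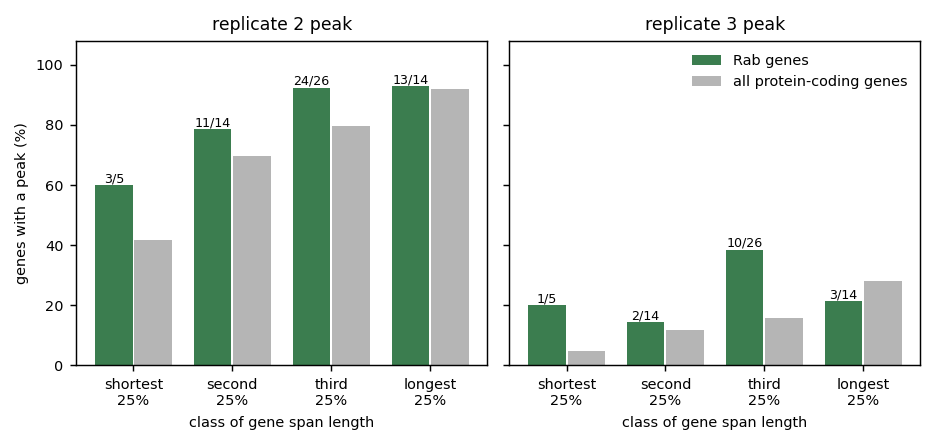
Percent of Rab genes (green, with counts) and of all protein-coding genes (grey) with a peak in the gene span plus 5 kb, by class of gene span length, for replicate 2 and replicate 3. In replicate 3 the bars are furthest apart in the third class, at 38.5% and 15.7%, and the Rab bar is the lower one in the longest class, at 21.4% and 28.1%.

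The gene spans make up most of the length of the windows searched. Of the 154 replicate 2 peaks, 75 lay wholly inside a Rab span, 34 crossed an end and the rest lay in the flanks. Of the 20 replicate 3 peaks, 11 lay inside, 1 crossed an end and 8 lay in the flanks. A replicate 3 peak overlapped the span of another protein-coding gene at Rab1a, Rab6a, Rab24 and Rab37. Without peaks that overlap another gene, 12 Rab genes kept a replicate 3 peak (20.3%, against 13% of all genes treated the same way).

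Genes listed as regulators or effectors of Rab proteins, whose activities were not checked, were counted from 4 lists with 132 members, all matched. Of these, 127 had a replicate 2 peak (96.2%, against 70.7% of all genes) and 33 a replicate 3 peak (25%, against 15.1%). Their median span of 53.3 kb is longer than that of Rab genes. Among all genes in the longest 25%, of 44.3 kb or more, 91.8% had a replicate 2 peak and 28.1% a replicate 3 peak. The 4 lists also hold shorter genes, with a median span of 6.63 kb in the list of chaperones and prenylation. No comparison of the lists matched by span length was made. Within 1 kb of a listed start the shares of the 4 lists were 69.3% in replicate 2 and 6.14% in replicate 3, against 41.6% and 3.96%.

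Exchange factors had a replicate 3 peak at 12 of 40 genes (30%, against 15.1% of all genes). Dennd4b had a score of 542 with its peak within 1 kb of the start, and Rin3, an exchange factor for Rab5 proteins, had 336. Dennd4a, Dennd1b, Sbf2, Dennd1c, Madd, Rabgef1, Trappc9, Rin2, Dennd6a and Dennd5b had best scores from 198 down to 79.3. In the list of GTPase-activating proteins, 9 of 36 genes had a replicate 3 peak (25%, against 15.1% of all genes). The highest scores were 1037 at Tbc1d14 and 697 at Tbc1d23. Tbc1d5, Tbc1d10b, Tbc1d22a, Tbc1d10a, Rabgap1l, Tbc1d1 and Tbc1d4 followed with 205 to 73.3. Tbc1d14, Tbc1d23 and Dennd4b scored above each Rab gene in the same list.

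Effectors had a replicate 3 peak at 10 of 48 genes (20.8%, against 15.1% of all genes). The highest scores were 341 at Sytl3 and 286 at Bicd1, an adaptor that links Rab6 vesicles to dynein. Eea1, the tether that binds active Rab5 on early endosomes, had 2 replicate 3 peaks and a best score of 209. Sytl2, Golga2, Osbpl1a, Rab11fip2, Appl1, Ehbp1l1 and Plin3 had best scores from 164 down to 74.9. In the list of 8 chaperone and prenylation genes, Rabggta, a subunit of the enzyme that attaches the prenyl tails, had a score of 119. Each of the 4 lists thus had members with a replicate 3 peak, as did 15.1% of all protein-coding genes.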

How the data were processed

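The submitters' processing notes name Trim Galore, Bowtie, MACS 1.4.1 and the mouse build mm10. The sources used here do not give versions of Trim Galore and Bowtie, the making of the merged list, or whether the input served as control. The deposited score of each peak was read from its values as minus 10 times log10 of the p-value, and carries no normalization between libraries. The deposited merged list has a score of 0 in every row. Peaks were called per library.

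Gene spans and promoter windows are from RefSeq on GRCm38.p6, the build of the files. Overlap means 1 bp or more, and a shared region is a stretch of overlapping peaks of both lists. Gene starts within 1 kb were counted where listed. The overlap code was tested on simulated data. Counting used Python 3.11.15 with pandas 2.3.3.

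The Rab rule, role groups and regulator lists were chosen with earlier results of these data known, so no test was made. Named are Rab genes with a replicate 3 peak, with no peak, or with a peak of 3000 or more within 1 kb of the start, and Rab4a, Rab4b, Rab5a to Rab5c, Rab7, Rab7b, Rab8a, Rab8b, Rab11a, Rab11b, Rab27a, Rab27b, Rab32, Rab38 and Rab44. Regulators are named where they have a replicate 3 peak, and 1 such result is not reported here. Rab2b, Rab9, Rab13, Rab14, Rab17, Rab26, Rab28, Rab29, Rab33a and Rab40b were picked with their values in view. The results were recomputed with scores of 100 or more, other windows, peak midpoints, reciprocal overlap and either list alone, and, added after the data were seen, peaks that overlap no other gene.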

Additional observations from a re-analysis of the deposited data

How the results depend on the processing

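Of 37 alternative counts, 32 stayed within 1.5 times the count reported. In all 37 the Rab share was above that of all protein-coding genes under the same setting. All 37 recount the same peak lists, some for very few genes, and none matches genes by span length. By span length, the replicate 3 share of Rab genes was higher in the shorter classes. From the shortest class up, 1 of 5, 2 of 14 and 10 of 26 Rab genes had such a peak. The first 2 of these counts rest on very few genes. In the longest 25% the Rab share was 21.4%, against 28.1% of all genes. Counted in the gene span alone, 10 Rab genes had a replicate 3 peak (16.9%, against 11.6% of all genes). With starts widened to 5 kb, 10 had a replicate 3 peak and 10 a shared region. Leaving out 1 replicate gave 16 to 51 Rab genes with a region, and 2 to 29 Rab gene starts, since the shared regions then become the list of the other replicate: the longer list, replicate 2, alone gives 51 and 29. With scores of at least 100, 13 Rab genes kept a replicate 3 peak, and those of Rab6a, Rab12 and Rab43 were lost. No paired analysis was possible because both PU.1 libraries belong to 1 group. Counts of peaks are limited by the depth of each library, which was not used here, and 2 libraries of 1 condition allow no test between conditions.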

Other observations

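Several Rab windows hold the starts of neighbouring genes. The replicate 2 peak of Rab26, with a score of 2643, overlapped Traf7, a ubiquitin ligase gene, and its midpoint lay 230 bp from the listed start of that gene. A peak of 327 in the Rab5b window lay 567 bp from the start of Suox, a sulfite oxidase gene, and one of 492 in the Rab4b window lay 170 bp from that of Egln2, an oxygen-sensing prolyl hydroxylase gene. Of 123 replicate 2 peaks at Rab genes with a listed start, the Rab gene's own start was the nearest listed one for 87, and of 16 such replicate 3 peaks for 11. Rab3a, a synaptic vesicle Rab, had a peak of 2581 that reached across its start, and Rab14 one of 3013 inside the gene, both without a replicate 3 peak. Of the 134 replicate 2 peaks at Rab genes without a replicate 3 peak, that of Rab14 had the highest score. These genes were chosen after their values were seen.

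The promoter windows that overlap a replicate 3 peak held GAGGAA in 46% and AGGAAGT in 33.6% of 580 windows over all protein-coding genes, against 27.4% and 9.07% of all 21263 windows. The single Rab window that overlaps one, that of Rab5a, held neither.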
